A study of Mus musculus with 16 samples.

Results

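Expression of 10 genes of fibroblast growth factor (FGF) signalling, taken by symbol from the table of deposited values, was followed through progesterone treatment of the mouse uterus: the ligands Fgf1, Fgf2, Fgf7, Fgf9, Fgf10 and Fgf18, the receptors Fgfr1, Fgfr2 and Fgfr3, and the feedback inhibitor Spry2. All 10 were among the 31274 features of the table, and all 10 had a mean of at least 1 FPKM (fragment counts scaled by the length of the transcript and the depth of the library) over the libraries, so that all were among the 15408 features tested. They were listed as stromal FGF signalling that Hand2 restrains.

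FGFs are secreted ligands that bind heparan sulfate and activate receptor tyrosine kinases, which signal through FRS adaptors, RAS and the MAP kinases. Fgf7 and Fgf10 are made by mesenchyme and act on the epithelial splice form of Fgfr2, while ligands such as Fgf2 and Fgf18 can act through the mesenchymal splice forms. In the uterus, progesterone acting on stroma induces the transcription factor Hand2, and in mice that lack uterine Hand2 the stroma keeps making FGFs (Fgf1, Fgf2, Fgf9 and Fgf18) that drive growth of the epithelium under estrogen. Sprouty proteins such as Spry2 are induced by FGF signalling in many tissues and dampen it.

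RNA-seq was done on whole uterus, so stroma, epithelium, muscle and vessels were measured together. The 4 groups, with 4 biological replicates each, were PgrcrePgrBLsL/+ mice given progesterone (PRB P4), the same strain given oil (PRB oil), PgrcrePgrALsL/+ mice given progesterone (PRA P4) and that strain given oil (PRA oil). All the mice had been ovariectomized for 2 weeks, the uteri were taken 6 h after treatment, and the growth protocol gives an age of 8 weeks. Every mouse of both strains carried a Cre driver from the Pgr locus and a Cre-activated transgene for progesterone receptor isoform B or isoform A, per the labels, and no mice without a transgene were used here. The Pgr promoter is active in several uterine cell types, whereas the series title speaks of the epithelium, so the cells that carried the extra receptor cannot be told from these data. One protocol field of the labels describes pregnant females, against the ovariectomy given everywhere else. Library positions follow strain and treatment and cannot be told apart from them.

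Depth, as implied by the spacing of the lowest values, was 54.6 M to 66.9 M fragments per library. In the shallowest library 1 FPKM corresponds to about 109 fragments for a transcript of 2 kb. Summed FPKM was 572846 to 595748 in the P4 libraries and 499748 to 528785 in the oil libraries. Defining markers of epithelium, stroma, smooth muscle, endothelium, leukocytes and mesothelium were detected in all 16 libraries. The gland marker Prss29 was listed above 0 in PRB P4 replicate 3 alone, at 2.42 FPKM. Spink3 was listed at 0 in at least 1 library of both oil groups. PRB P4 replicate 3 stood apart: it lay at 42.6 on the second principal component, against 5.44 to 17.004 for the other libraries of its group, and its leukocyte markers summed to 68.1 FPKM, against 26.7 to 29.0. Where leaving it out changed the call of a gene of FGF signalling, this is stated beside the result. A change in the number of cells of a type and a change in RNA per cell cannot be told apart in whole tissue.

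The 4 ligands that changed with progesterone in both strains were paired by the direction of change, Fgf7 with Fgf10 and Fgf9 with Fgf18. The sequences around a start site of each are shown here because the members of each pair moved together. Each window runs from 250 bases before to 50 bases after a RefSeq start site (GRCm38.p6), 5′ to 3′ on the strand of the gene. Fgf7 lies on the plus strand at chr2:126034408-126034707, Fgf10 on the plus strand at chr13:118714449-118714748, Fgf9 on the plus strand at chr14:58072436-58072735 and Fgf18 on the minus strand at chr11:33147351-33147650. The Fgf9 window lies inside the gene, which begins at chr14:58070671 in RefSeq. GENCODE begins Fgf10 upstream of its window, at chr13:118669791. Sequence at these upstream starts was not searched. Capitals mark the CATCTG E-box, a core that HAND proteins and other basic helix-loop-helix factors can bind, which in Fgf10 lies on the opposite strand and so reads as its reverse complement.
Fgf7: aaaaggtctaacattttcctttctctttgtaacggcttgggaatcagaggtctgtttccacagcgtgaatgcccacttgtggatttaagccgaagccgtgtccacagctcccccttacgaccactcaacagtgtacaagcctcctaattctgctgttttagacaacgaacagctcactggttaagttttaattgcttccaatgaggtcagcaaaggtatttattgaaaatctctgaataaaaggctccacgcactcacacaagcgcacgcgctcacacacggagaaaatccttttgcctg
Fgf10: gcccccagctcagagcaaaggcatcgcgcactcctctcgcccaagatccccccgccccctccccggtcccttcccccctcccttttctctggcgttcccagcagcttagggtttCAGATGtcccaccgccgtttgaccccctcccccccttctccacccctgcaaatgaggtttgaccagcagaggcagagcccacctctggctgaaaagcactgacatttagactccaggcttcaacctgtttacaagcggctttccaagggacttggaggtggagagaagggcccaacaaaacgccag
Fgf9: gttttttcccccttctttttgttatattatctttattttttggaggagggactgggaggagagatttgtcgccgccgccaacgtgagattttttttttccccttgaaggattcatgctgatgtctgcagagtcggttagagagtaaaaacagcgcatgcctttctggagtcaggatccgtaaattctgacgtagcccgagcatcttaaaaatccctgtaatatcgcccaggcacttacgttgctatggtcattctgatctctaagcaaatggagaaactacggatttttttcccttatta
Fgf18: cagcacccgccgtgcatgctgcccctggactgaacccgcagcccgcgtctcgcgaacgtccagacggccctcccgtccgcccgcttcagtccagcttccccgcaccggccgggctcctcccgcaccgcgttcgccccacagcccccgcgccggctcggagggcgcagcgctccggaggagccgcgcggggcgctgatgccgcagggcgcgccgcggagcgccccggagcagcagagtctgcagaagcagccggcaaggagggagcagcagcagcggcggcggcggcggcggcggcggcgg
Windows of 8 of the 10 genes were searched, and Fgf1 and Fgfr1 were not covered. Both strands were searched for CATCTG, for the short core of the progesterone response element (TGTTCT) and for its loose palindrome (GNACA and TGTNC with NNN between), which can overlap the core. CATCTG was found in 2 of these 8 genes, 136 bases before the start used for Fgf10 and 2 bases before that used for Fgfr2. It was present in 17.2% of all 32851 windows of this length. TGTTCT was in none of the windows of these genes and in 19.0% of all windows. The palindrome was in none of them and in 0.475% of all windows. These letters are a description of the windows, not of binding.

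**Figure D1:**
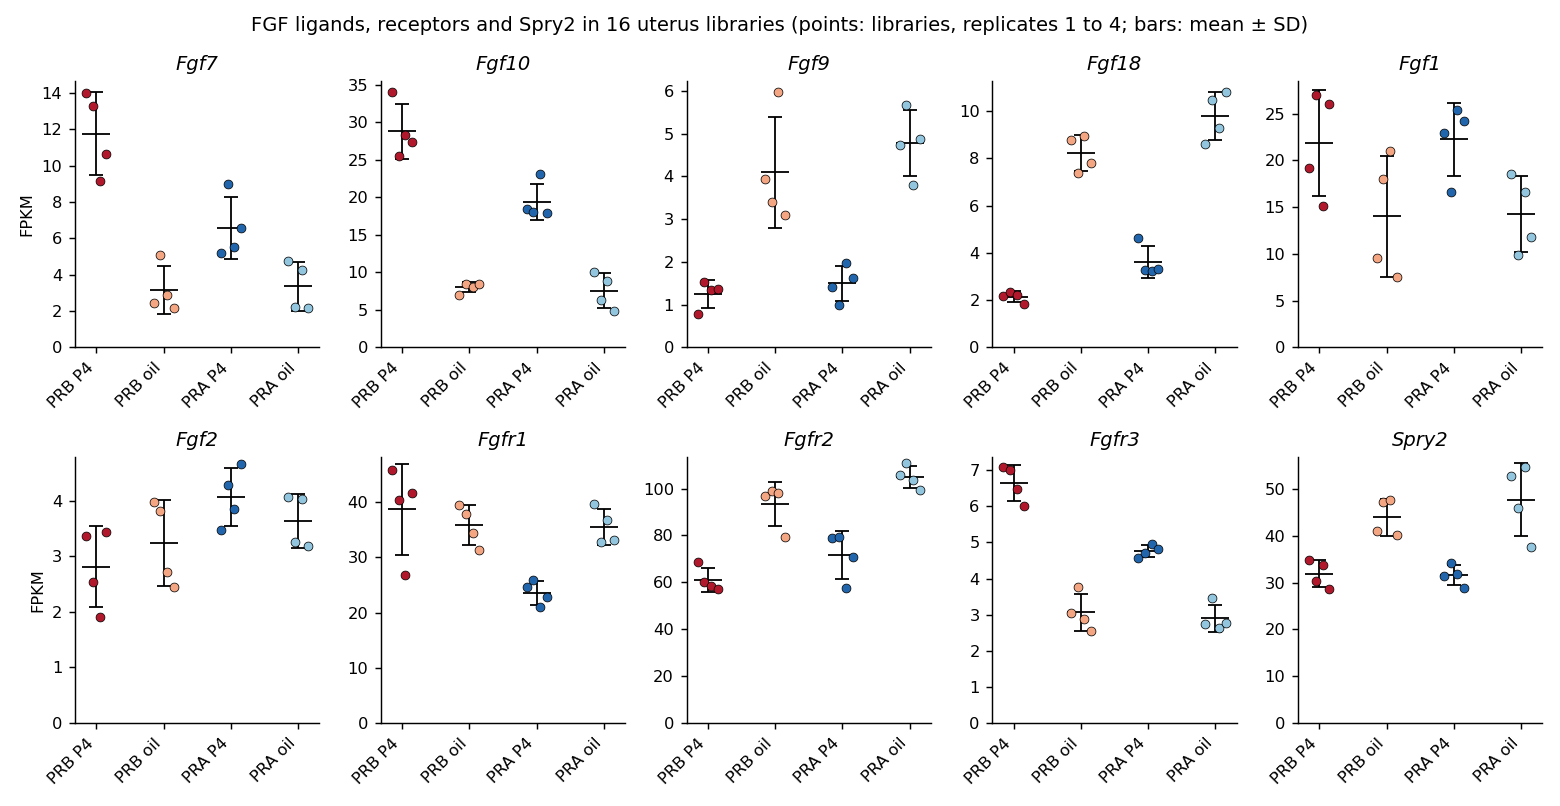
FPKM of the 10 genes in each of the 16 libraries (points) with mean ± SD of 4 libraries per group (bars), in the order PRB P4, PRB oil, PRA P4 and PRA oil, each panel on its own axis from 0. Fgf7, Fgf10 and Fgfr3 were higher in every P4 library than in every oil library of the same strain, Fgf9, Fgf18, Fgfr2 and Spry2 were lower, and Fgfr1 was lower in PRA P4 and overlapped oil in PRB.

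After 6 h of progesterone, in both strains, Fgf7, Fgf10 and Fgfr3 rose and Fgf9, Fgf18, Fgfr2 and Spry2 fell. In PRA uteri Fgfr1 also fell. Values were compared as log2(FPKM + 1) with limma, and a gene is said to have changed where the Benjamini-Hochberg adjusted p over all 15408 features was under 0.05. By this test 7 of the 10 genes changed in PRB, 3 higher and 4 lower, where 69.1% of all features changed (36.2% higher, 32.9% lower). In PRA 8 of the 10 changed, 3 higher and 5 lower, where 69.8% of all features changed (36.6% higher, 33.2% lower). The shares of these genes are thus near those of all features, and 7 genes changed in the same direction in both strains. Their median log2 change was -0.04 in PRB, against 0.00 over all features, and -0.21 in PRA, against 0.01. The 4 P4 libraries did not overlap the 4 oil libraries in 7 of the genes in PRB, against 61.0% of all features, and in 8 in PRA, against 66.2%.

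Fgf10, a mesenchymal ligand of epithelial Fgfr2, had 34.1, 25.6, 28.4 and 27.3 FPKM in PRB P4 libraries, against 7.04, 8.47, 8.02 and 8.44 FPKM in PRB oil. The PRA libraries had 18.5, 18.1, 23.1 and 18.0 FPKM with P4, against 10.1, 6.35, 8.79 and 4.90 FPKM with oil. Every P4 library was above every oil library, and the PRA oil libraries spread more widely than those of PRB oil. The log2 change was 1.73 (SE 0.16, adjusted p = 2.32e-07 by limma) in PRB and 1.29 (SE 0.16, adjusted p = 4.55e-06 by limma) in PRA. Under all 24 alternative settings of the analysis it stayed between 1.65 and 1.83 in PRB and between 1.13 and 1.43 in PRA.

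Fgf7, the keratinocyte growth factor, is the closest relative of Fgf10 among the ligands followed here and acts on the same receptor form. It had 14.0, 13.3, 9.15 and 10.6 FPKM in PRB P4 libraries, against 2.42, 5.09, 2.86 and 2.19 FPKM in PRB oil. Its levels in PRA were 5.17, 8.999, 5.53 and 6.56 FPKM with P4, against 4.77, 2.23, 4.26 and 2.19 FPKM with oil. The groups were well apart in PRB, while in PRA the lowest P4 library lay just above the highest oil library. The log2 change was 1.66 (SE 0.24, adjusted p = 2.46e-05 by limma) in PRB and 0.82 (SE 0.24, adjusted p = 0.00739 by limma) in PRA.

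Fgf9, a ligand known from both epithelium and stroma of the uterus, had 0.774, 1.53, 1.35 and 1.36 FPKM in PRB P4 libraries, against 3.94, 3.40, 5.97 and 3.09 FPKM in PRB oil. In PRA uteri the values were 1.41, 0.994, 1.97 and 1.62 FPKM with P4, against 4.74, 5.68, 3.80 and 4.88 FPKM with oil. No P4 library reached the lowest oil library of its strain. The log2 change was -1.16 (SE 0.17, adjusted p = 3.04e-05 by limma) in PRB and -1.21 (SE 0.17, adjusted p = 1.91e-05 by limma) in PRA.

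Fgf18, a ligand best known from bone and lung mesenchyme, had the smallest SE of the 6 ligands in these comparisons. It had 2.19, 2.33, 2.24 and 1.82 FPKM in PRB P4 libraries, against 8.77, 7.37, 8.94 and 7.82 FPKM in PRB oil. The PRA libraries had 4.65, 3.29, 3.22 and 3.33 FPKM with P4, against 8.61, 10.5, 9.29 and 10.8 FPKM with oil. The P4 and oil libraries were far apart in both strains, and PRA P4 replicate 1 lay above the other 3 of its group. The log2 change was -1.55 (SE 0.10, adjusted p = 7.09e-09 by limma) in PRB and -1.23 (SE 0.10, adjusted p = 7.20e-08 by limma) in PRA.

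The pairs were formed by the direction of these same changes. Opposite directions of the sums, and a shift of their ratio, follow from that choice. Fgf7 and Fgf10 summed to 40.6 ± 5.02 FPKM in PRB P4 and 11.1 ± 1.73 FPKM in PRB oil, and to 25.96 ± 2.26 FPKM in PRA P4 and 10.9 ± 3.66 FPKM in PRA oil (SD, n = 4). Fgf9 and Fgf18 summed to 3.40 ± 0.402 FPKM in PRB P4 and 12.3 ± 1.94 FPKM in PRB oil, and to 5.12 ± 0.732 FPKM in PRA P4 and 14.6 ± 1.59 FPKM in PRA oil (SD, n = 4). The ratio of the first sum to the second was 12.2 (10.1 to 16.2) in PRB P4, against 0.927 (0.730 to 1.26) in PRB oil. In PRA the ratio was 5.17 (3.91 to 6.31) with P4, against 0.773 (0.452 to 1.11) with oil. With oil the pairs were thus present at similar summed FPKM, and with P4 Fgf7 and Fgf10 made up most of their joint level. No test was run on the ratio.

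Fgf1 and Fgf2, the prototype ligands without a classical secretion signal, did not pass the test. Fgf1 had 19.2, 27.0, 15.1 and 26.02 FPKM in PRB P4, against 9.60, 18.0, 21.0 and 7.51 FPKM in PRB oil. Its levels in PRA were 22.9, 16.6, 25.4 and 24.2 FPKM with P4, against 18.6, 9.90, 16.6 and 11.8 FPKM with oil. The groups overlapped in both strains, the oil libraries being widely spread. The log2 difference was 0.68 (95% interval 0.05 to 1.30, adjusted p = 0.0509 by limma) in PRB and 0.63 (95% interval 0.01 to 1.26, adjusted p = 0.0649 by limma) in PRA. It passed the threshold in PRB without PRA oil replicate 2, PRB oil replicate 2 or 3 or PRB P4 replicate 3, and over all omissions of 1 library the difference ran from 0.44 to 0.89 with adjusted p from 0.0132 to 0.176. In PRA it passed without PRA oil replicate 1, PRA P4 replicate 2 or PRB oil replicate 3 or 4, and the difference ran from 0.49 to 0.77 with adjusted p from 0.0400 to 0.177.

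Fgf2 lay between 1.90 and 3.43 FPKM in PRB P4, against 2.45 and 3.98 FPKM in PRB oil, and between 3.46 and 4.65 FPKM in PRA P4, against 3.18 and 4.07 FPKM in PRA oil. These groups overlapped in both strains, with log2 differences of -0.16 (95% interval -0.48 to 0.16) in PRB, or -0.03 without PRB P4 replicate 3, and 0.13 (95% interval -0.19 to 0.45) in PRA. Exons of Fgf2 overlap 640 bp of Nudt6 on the opposite strand in the GENCODE annotation of GRCm38, and whether the counting used strand is not given in the sources used here, so its values may hold reads of Nudt6. Overlaps on the opposite strand are also annotated for Fgfr3, of 998 bp with G630022F23Rik, and for Fgf10 (123 bp) and Fgfr1 (164 bp) with antisense transcripts. Fgfr2 overlaps Ctbp2 by 314 bp on the same strand. The values of these genes may likewise hold reads of their overlapping partners.

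**Figure D2:**
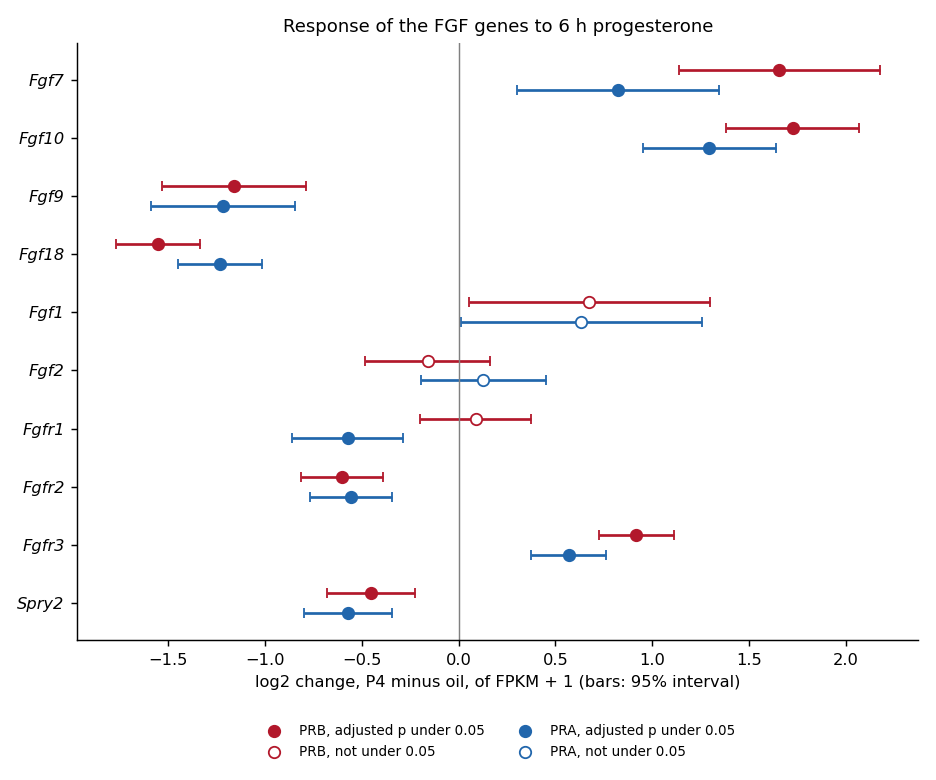
Log2 change of FPKM + 1 between P4 and oil for each gene, in PRB (red, upper point) and PRA (blue, lower point), with 95% intervals. Filled points passed an adjusted p of 0.05. The intervals of Fgf7, Fgf10 and Fgfr3 lie right of 0 and those of Fgf9, Fgf18, Fgfr2 and Spry2 left of 0 in both strains, and Fgfr1 was -0.57 in PRA and 0.09 in PRB.

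Among the receptors, Fgfr2 was the most abundant of the 10 genes in all 4 groups. It had 68.6, 60.2, 58.5 and 57.3 FPKM in PRB P4 libraries, against 96.9, 98.8, 98.1 and 79.4 FPKM in PRB oil. In PRA uteri the values were 79.1, 79.2, 57.5 and 70.9 FPKM with P4, against 106, 111, 103 and 99.5 FPKM with oil. The P4 libraries were lower without overlap in both strains. Fgfr2 fell by 0.60 on the log2 scale in PRB (SE 0.10, adjusted p = 7.02e-05 by limma) and fell by 0.55 in PRA (SE 0.10, adjusted p = 0.000143 by limma). The values are per gene, so the epithelial and mesenchymal splice forms are not separated.

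Fgfr3, the least abundant of the 3 receptors, went the other way. It had 7.08, 6.99, 6.49 and 6.01 FPKM in PRB P4 libraries, against 3.06, 3.76, 2.88 and 2.55 FPKM in PRB oil. The PRA libraries had 4.56, 4.71, 4.96 and 4.81 FPKM with P4, against 2.74, 3.47, 2.63 and 2.76 FPKM with oil. Every P4 library was above every oil library. The log2 change was 0.92 (SE 0.09, adjusted p = 4.06e-07 by limma) in PRB and 0.57 (SE 0.09, adjusted p = 5.08e-05 by limma) in PRA.

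Fgfr1, whose main splice form is that of mesenchyme, had 45.9, 40.4, 26.9 and 41.7 FPKM in PRB P4 libraries, against 39.6, 37.9, 34.5 and 31.4 FPKM in PRB oil. Its levels in PRA were 24.6, 25.9, 20.9 and 22.9 FPKM with P4, against 39.6, 32.8, 36.7 and 33.1 FPKM with oil. In PRA the P4 libraries were all lower than the oil libraries, while in PRB 3 of the P4 libraries were above all oil libraries and replicate 3 was below them. Fgfr1 fell by 0.57 on the log2 scale in PRA (SE 0.13, adjusted p = 0.00141 by limma). In PRB the difference was 0.09 (95% interval -0.20 to 0.37, adjusted p = 0.573 by limma). Without PRB P4 replicate 3, the library with the high leukocyte markers, it was 0.25 (adjusted p = 0.0274 by limma), and 9 of the 10 genes then passed in PRB, 5 higher and 4 lower, with Fgf1 and Fgfr1 added.

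The ratio of Fgfr1 to Fgfr2 was 0.632 ± 0.118 in PRB P4 and 0.385 ± 0.0244 in PRB oil, and 0.331 ± 0.0230 in PRA P4 and 0.339 ± 0.0336 in PRA oil (SD, n = 4). Its lowest value in PRB P4, 0.460, lay above the highest of the other 12 libraries, 0.408. The 3 receptors summed to 106 ± 12.2 FPKM in PRB P4 and 132 ± 12.8 FPKM in PRB oil, and to 100.01 ± 12.2 FPKM in PRA P4 and 143 ± 5.82 FPKM in PRA oil (SD, n = 4).

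Spry2, the feedback inhibitor, had 34.9, 30.3, 33.9 and 28.6 FPKM in PRB P4 libraries, against 41.0, 47.2, 47.6 and 40.1 FPKM in PRB oil. In PRA uteri the values were 31.5, 34.1, 31.8 and 28.9 FPKM with P4, against 52.9, 45.9, 54.7 and 37.5 FPKM with oil. The P4 libraries were lower without overlap, and the 2 P4 groups were alike in range. The log2 change was -0.45 (SE 0.11, adjusted p = 0.00153 by limma) in PRB and -0.57 (SE 0.11, adjusted p = 0.000218 by limma) in PRA.

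Hand2, the transcription factor induced by progesterone in stroma, had 82.3, 83.7, 73.7 and 93.0 FPKM in PRB P4 libraries, against 38.8, 35.5, 37.7 and 49.0 FPKM in PRB oil. The PRA libraries had 62.6, 68.1, 76.9 and 71.9 FPKM with P4, against 29.8, 38.0, 32.2 and 34.2 FPKM with oil. It rose by 1.04 on the log2 scale in each strain (SE 0.10, adjusted p = 4.54e-07 in PRB and 4.40e-07 in PRA by limma). Of the ligands that stay on in mice without uterine Hand2, Fgf9 and Fgf18 fell beside this rise, and Fgf1 and Fgf2 did not pass the test. Fgf7 and Fgf10 rose.

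Pgr, counted over the endogenous gene and whatever part of the transgene shares its sequence, had 121, 122, 78.5 and 126 FPKM in PRB P4 libraries, against 87.6, 79.9, 79.4 and 87.3 FPKM in PRB oil. Its levels in PRA were 72.1, 76.4, 73.2 and 73.7 FPKM with P4, against 66.7, 67.3, 56.8 and 68.9 FPKM with oil. PRB P4 replicate 3 had the lowest Pgr of its group, below the PRB oil libraries. On the log2 scale Pgr rose by 0.39 with P4 in PRB (adjusted p = 0.00807 by limma). In PRA the change was 0.19 (adjusted p = 0.171 by limma). Between the strains with P4 the log2 difference was 0.57 (SE 0.12, adjusted p = 0.00575 by limma), all 4 PRB libraries being higher. With oil all 4 PRB libraries were higher too, by 0.36 (adjusted p = 0.588 by limma). Without PRB P4 replicate 3 the oil difference and the change in PRA passed (adjusted p = 0.0214 and 0.00895 by limma).

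**Figure D3:**
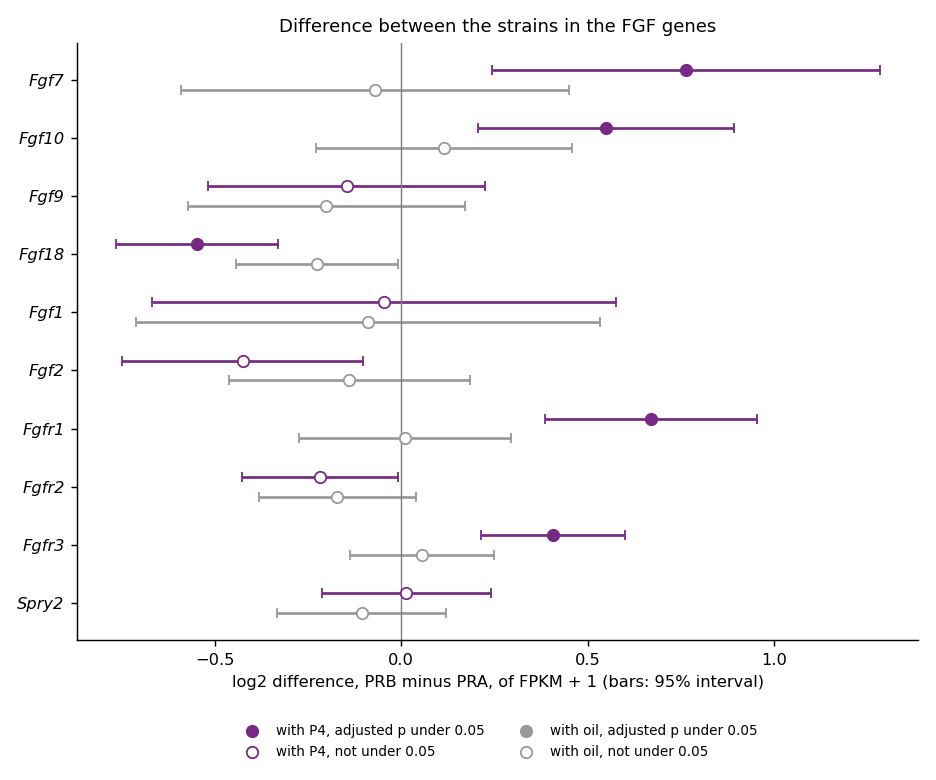
Log2 difference of FPKM + 1 between PRB and PRA for each gene, with P4 (purple, upper point) and with oil (grey, lower point), with 95% intervals. Filled points passed an adjusted p of 0.05. Fgf7, Fgf10, Fgfr1 and Fgfr3 were higher and Fgf18 lower in PRB P4 than in PRA P4, and no gene passed with oil.

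Under progesterone the strains differed in 5 of these genes: Fgf7, Fgf10, Fgfr1 and Fgfr3 were higher in PRB P4 than in PRA P4, and Fgf18 was lower. This was 5 of 10 genes, where 16% of all features differed (7.75% higher, 8.29% lower). In 6 of the 10 the libraries did not overlap, against 20.2% of all features. The log2 difference was 0.67 for Fgfr1 (SE 0.13, adjusted p = 0.00446 by limma), 0.41 for Fgfr3 (SE 0.09, adjusted p = 0.00823 by limma) and -0.55 for Fgf18 (SE 0.10, adjusted p = 0.00292 by limma). These 3 passed under every alternative setting in which they were tested, and the difference in Fgfr1 was 0.83 without PRB P4 replicate 3. The differences in Fgf7 and Fgf10 were close to the threshold.

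Fgf7 differed by 0.76 (SE 0.24, adjusted p = 0.0458 by limma) between PRB P4 and PRA P4. It missed the threshold in 12 of 24 alternatives, among them the omission of PRB P4 replicate 1, 2 or 4, PRB oil replicate 1 or 3, or PRA P4 replicate 1, 3 or 4, with differences from 0.68 to 0.91 and adjusted p from 0.0288 to 0.110 over all the omissions. Fgf10 differed by 0.55 (SE 0.16, adjusted p = 0.0326 by limma). It missed the threshold in 6 of 24 alternatives, among them the omission of PRB P4 replicate 1 or 3 or PRA P4 replicate 1, 2 or 4, with differences from 0.47 to 0.63 and adjusted p from 0.0107 to 0.0906. The PRB libraries were higher than all PRA libraries for both genes.

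The remaining genes did not pass between the strains with P4. Fgf2 was lower in PRB P4 without overlap, with a log2 difference of -0.43 (95% interval -0.75 to -0.10, adjusted p = 0.0696 by limma), which passed without PRB P4 replicate 4 (adjusted p = 0.0497). Fgfr2 differed by -0.22 (adjusted p = 0.148 by limma), and passed without PRA P4 replicate 3, at -0.32 (adjusted p = 0.0243). Fgf1 differed by -0.05 (95% interval -0.67 to 0.58), Fgf9 by -0.15 (95% interval -0.52 to 0.23) and Spry2 by 0.01 (95% interval -0.21 to 0.24). The interval of Spry2 was narrow and that of Fgf1 wide.

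With oil none of the 10 genes passed between the strains, with adjusted p from 0.920 to 1.00 by limma, where 0.117% of all features passed (0.0389% higher, 0.0779% lower). In 1 of the 10, Fgfr2, the 4 PRB oil libraries lay below the 4 PRA oil libraries, against 3.39% of all features without overlap, with a log2 difference of -0.17. Over all features, 18 passed and 802 had an unadjusted p under 0.05.

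Whether the response to progesterone itself differed was tested as the difference of the 2 changes, PRB minus PRA. None of the 10 genes passed, where 2.28% of all features did (1.47% higher, 0.811% lower), and 2538 features had an unadjusted p under 0.05. The estimates were 0.83 for Fgf7 (95% interval 0.10 to 1.57, adjusted p = 0.238 by limma), 0.66 for Fgfr1 (95% interval 0.26 to 1.06, adjusted p = 0.0853 by limma) and 0.43 for Fgf10 (95% interval -0.05 to 0.92, adjusted p = 0.369 by limma). For Fgfr3 it was 0.35 (adjusted p = 0.177 by limma) and for Fgf18 -0.32 (adjusted p = 0.282 by limma). Without PRB P4 replicate 3 the difference for Fgfr1 was 0.82 (adjusted p = 0.00373 by limma), and it was then the 1 gene of 10 that passed. The strain contrast with P4 and the difference of responses share their P4 libraries. The test of the difference was also run on simulated data, in which 200 of 15408 features changed. It recovered 29.9% of differences of 0.5 and 68.7% of differences of 1 on the log2 scale. These are averages over features of all levels, not rates for these 10 genes.

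The order of the genes by mean FPKM also shifted. In PRB P4 it ran Fgfr2, Fgfr1, Spry2, Fgf10, Fgf1, Fgf7, Fgfr3, Fgf2, Fgf18 and Fgf9, from 61.1 to 1.25 FPKM, and the ranges of Fgfr1 and Spry2, of Spry2 and Fgf10, of Fgf10 and Fgf1 and of Fgf2 and Fgf18 overlapped. In PRB oil it ran Fgfr2, Spry2, Fgfr1, Fgf1, Fgf18, Fgf10, Fgf9, Fgf2, Fgf7 and Fgfr3, from 93.3 to 3.06 FPKM, with the last 4 and also Fgf1, Fgf18 and Fgf10 overlapping their neighbours. The PRA oil order was the same as that of PRB oil, from 105 to 2.90 FPKM. In PRA oil the ranges of all neighbours overlapped except Fgfr2 with Spry2 and Fgfr1 with Fgf1. In PRA P4 it ran Fgfr2, Spry2, Fgfr1, Fgf1, Fgf10, Fgf7, Fgfr3, Fgf2, Fgf18 and Fgf9, from 71.7 to 1.499 FPKM, with overlap between Fgfr1, Fgf1 and Fgf10 and between Fgfr3, Fgf2 and Fgf18. Fgf7 and Fgf10 were thus above Fgf18 and Fgf9 with P4, with ranges that did not overlap.

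Of the 12 other secreted ligands looked up, 2 passed the filter. Fgf16, of the Fgf9 subfamily, fell in both strains: it had 0.327, 0.474, 0.202 and 0.420 FPKM in PRB P4, against 2.64, 1.68, 2.70 and 2.54 FPKM in PRB oil, and 0.649, 0.367, 0.324 and 0.353 FPKM in PRA P4, against 2.48, 2.61, 2.22 and 2.98 FPKM in PRA oil. Its log2 change of FPKM + 1 was -1.32 in PRB and -1.33 in PRA (SE 0.12 in each). Adding 1 to FPKM understates changes at such low levels, so this change is not set against that of Fgf9. Fgf17, of the Fgf8 subfamily, rose by 0.61 in PRB (SE 0.13) and by 0.48 in PRA (SE 0.13). Among the intracellular FGFs, which are not secreted and bind sodium channels, 2 of the 3 tested fell in both strains, Fgf11 by 0.46 in PRB and 0.43 in PRA and Fgf13 by 0.52 in PRB and 0.61 in PRA. Of all features, 32.9% fell in PRB and 33.2% in PRA. Fgfrl1, a receptor without a kinase domain, fell in PRA, at -0.45 (SE 0.13), and was -0.26 (SE 0.13, adjusted p = 0.0848 by limma) in PRB, where it was -0.11 without PRB P4 replicate 3, the library with 9.52 FPKM. Fgfr4, the remaining receptor kinase, varied between 4.22 and 14.1 FPKM in PRB P4, against 0.845 and 10.7 FPKM in PRB oil, and between 0.307 and 8.98 FPKM in PRA P4, against 0.147 and 18.0 FPKM in PRA oil. It passed in no comparison.

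**Figure D4:**
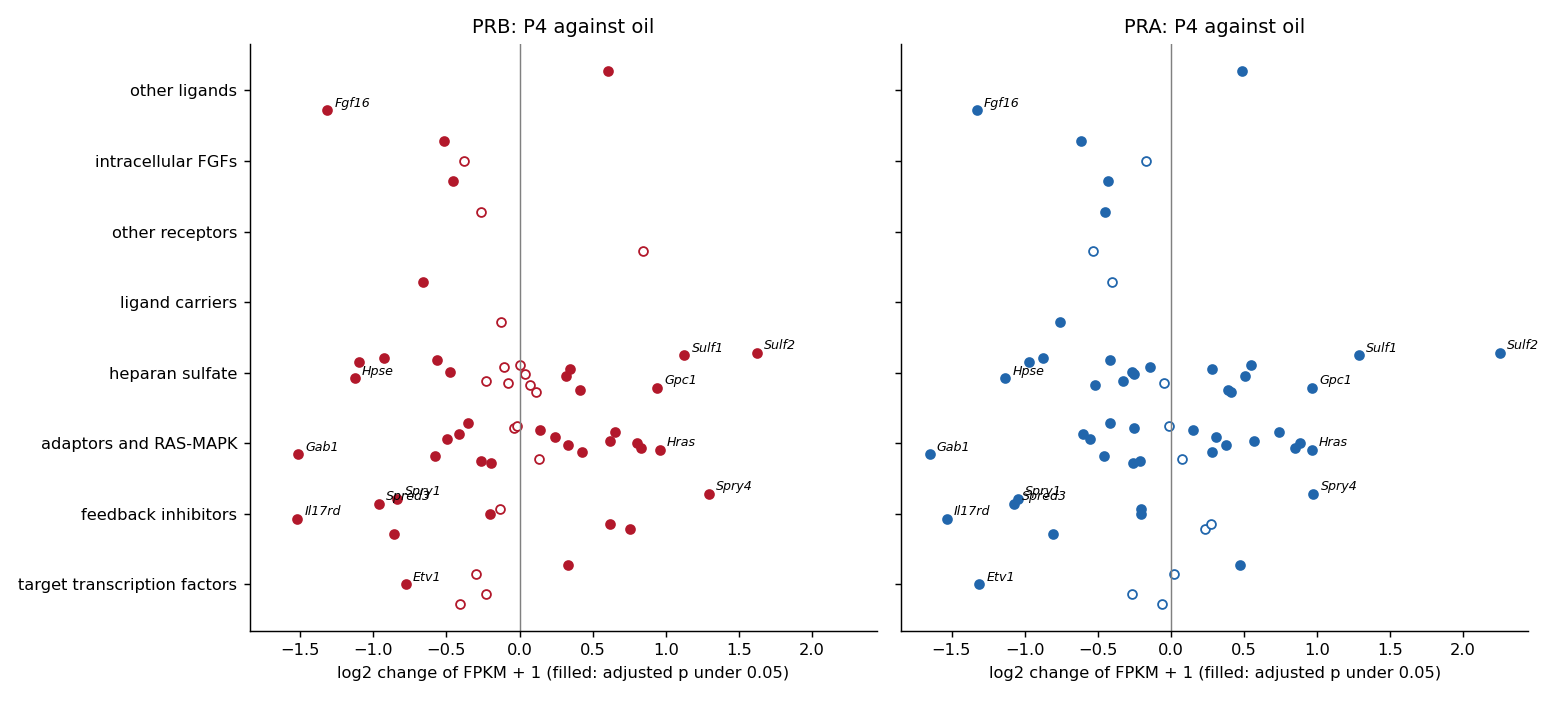
Log2 change of FPKM + 1 between P4 and oil for the 60 other FGF pathway genes tested, by list, in PRB (left) and PRA (right). Each point is 1 gene, filled where the adjusted p was under 0.05; Sulf2 was 1.62 in PRB and 2.25 in PRA, and Il17rd -1.52 and -1.53.

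Heparan sulfate proteoglycans hold FGFs at the cell surface, and the enzymes that build and trim the chains set how well they bind. Of 18 such genes tested, 6 rose and 5 fell in PRB, and 8 rose and 9 fell in PRA. Among all features, 36.2% rose and 32.9% fell in PRB, and 36.6% rose and 33.2% fell in PRA. The extracellular sulfatases, which remove sulfate groups from the chains, rose: Sulf2 had 43.4, 49.2, 58.9 and 61.4 FPKM in PRB P4, against 18.8, 12.5, 18.5 and 16.7 FPKM in PRB oil, and 56.4, 63.9, 79.6 and 77.5 FPKM in PRA P4, against 13.0, 13.4, 11.3 and 17.4 FPKM in PRA oil. Its log2 change was 1.62 (SE 0.16, adjusted p = 3.94e-07 by limma) in PRB and 2.25 (SE 0.16, adjusted p = 1.47e-08 by limma) in PRA, and the difference of -0.63 did not pass (adjusted p = 0.170 by limma). Sulf1 rose by 1.13 in PRB and 1.29 in PRA. The heparanase Hpse fell by 1.13 in each strain, and the core protein Sdc2 fell by 1.10 in PRB and 0.97 in PRA. Hs2st1, a sulfotransferase, rose by 0.32 in PRB and 0.51 in PRA, and was the 1 gene of this list that differed between the strains with P4, at -0.21 (SE 0.06, adjusted p = 0.0426 by limma), a difference that did not pass without PRB P4 replicate 3 (adjusted p = 0.0934). Without that library Gpc6, a core protein, also fell in PRB, at -0.39 (adjusted p = 0.00146).

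Of the 19 adaptors and RAS-MAP kinase genes, 9 rose and 7 fell in PRB and 9 rose and 8 fell in PRA. The shares of all features were 36.2% and 32.9% in PRB, and 36.6% and 33.2% in PRA. Gab1, a docking protein downstream of FRS adaptors, had 8.82, 7.61, 8.95 and 7.71 FPKM in PRB P4, against 27.3, 28.4, 24.7 and 22.0 FPKM in PRB oil, and it fell by 1.52 on the log2 scale in PRB and 1.65 in PRA (SE 0.09 in each). Hras rose by 0.96 in each strain, and the kinase Map2k2 by 0.80 in PRB and 0.88 in PRA. Plcg1, Shc1 and Grb2, which couple receptors to their pathways, were higher in PRB P4 than in PRA P4, by 0.25 (adjusted p = 0.0360), 0.23 (adjusted p = 0.00514) and 0.16 (adjusted p = 0.0391) by limma. Without PRB P4 replicate 3 Grb2 did not pass (adjusted p = 0.0740).

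The feedback inhibitors other than Spry2 did not move as one. Of 9 tested, 3 rose and 5 fell in PRB, and 1 rose and 6 fell in PRA. The share of all features that changed was 69.1% in PRB and 69.8% in PRA. Il17rd, also called Sef, fell by 1.52 in PRB and 1.53 in PRA (SE 0.06 in each): it had 3.73 to 4.57 FPKM in PRB P4, against 13.2 to 15.4 FPKM in PRB oil, and 3.48 to 3.75 FPKM in PRA P4, against 12.1 to 13.2 FPKM in PRA oil. Spry1 fell by 0.84 in PRB and 1.04 in PRA, Spred3 by 0.96 in PRB and 1.07 in PRA, and the MAP kinase phosphatase Dusp4 by 0.86 in PRB and 0.80 in PRA. Spry4 rose instead, with 12.4, 11.3, 6.15 and 11.2 FPKM in PRB P4, against 2.67, 3.28, 4.04 and 3.99 FPKM in PRB oil, and 7.05, 8.39, 6.77 and 6.55 FPKM in PRA P4, against 3.54, 3.39, 2.60 and 3.14 FPKM in PRA oil. Its log2 change was 1.30 (SE 0.17) in PRB and 0.98 (SE 0.17) in PRA. Without PRB P4 replicate 3, Spry4 and Il17rd were higher in PRB P4 than in PRA P4, by 0.63 (adjusted p = 0.00340) and 0.22 (adjusted p = 0.0226) by limma, and Spred1 no longer passed in PRB (adjusted p = 0.136). Dusp5 and Dusp6, the other 2 that rose in PRB, were named after their values were seen, with changes of 0.76 and 0.62, against 0.23 and 0.27 in PRA, where they did not pass, and neither passed for the difference of responses.

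Among 5 transcription factors and cell cycle genes that FGF signalling is known to induce, Etv5 rose by 0.33 in PRB and 0.47 in PRA, and Etv1 fell by 0.78 in PRB and 1.31 in PRA. Ccnd1, the cyclin, had 66.7, 66.1, 30.1 and 75.6 FPKM in PRB P4, against 70.6 to 79.3 FPKM in PRB oil. Its log2 difference was -0.41 in PRB (adjusted p = 0.0956 by limma), or -0.12 without PRB P4 replicate 3 (adjusted p = 0.305), and -0.06 in PRA (adjusted p = 0.808 by limma). The carriers Fgfbp1 and Fgfbp3 release FGFs from the matrix. Fgfbp3 fell in PRB, at -0.66 (adjusted p = 0.0318 by limma), but did not pass without PRB P4 replicate 3 (-0.63, adjusted p = 0.0655), and was -0.40 in PRA (adjusted p = 0.179 by limma). Fgfbp1 was -0.13 in PRB (adjusted p = 0.672 by limma) and fell in PRA, at -0.75 (adjusted p = 0.0173 by limma). The difference of responses passed for neither carrier. Over all 60 pathway genes tested outside the 10, 20 rose and 22 fell in PRB, and 20 rose and 29 fell in PRA. The shares of all features were 36.2% and 32.9% in PRB, and 36.6% and 33.2% in PRA. The median log2 change of the 60 was -0.12 in PRB, against 0.00 over all features, and -0.20 in PRA, against 0.01. With P4, 3 of the 60 were higher and 1 lower in PRB than in PRA, against 7.75% and 8.29% of all features. None of the 60 passed with oil or for the difference of responses, where 0.117% and 2.28% of all features passed.

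Markers of the cell types in whole uterus moved with treatment too. The 8 epithelial markers summed to 1264 to 1541 FPKM in PRB P4, against 826 to 889 FPKM in PRB oil, and to 994 to 1257 FPKM in PRA P4, against 784 to 886 FPKM in PRA oil. Of the 8, 3 rose and none fell in PRB, and 3 rose and 2 fell in PRA. The 7 stromal markers summed to 712 to 817 FPKM in PRB P4, against 1112 to 1202 FPKM in PRB oil, and to 652 to 839 FPKM in PRA P4, against 1010 to 1118 FPKM in PRA oil. Of these, 1 rose and 4 fell in PRB, and 2 rose and 3 fell in PRA. Over all features, 36.2% rose and 32.9% fell in PRB, and 36.6% rose and 33.2% fell in PRA. Without PRB P4 replicate 3, the epithelial Krt8 (adjusted p = 0.105) and the stromal Col1a1 (adjusted p = 0.0802) did not pass in PRB, and the epithelial Krt18 fell there, at -0.37 (adjusted p = 0.00311 by limma). These sums rest on few genes. Cldn3 averaged 589 FPKM in PRB P4 and 179 FPKM in PRB oil, and 379 FPKM in PRA P4 and 158 FPKM in PRA oil. Without it the epithelial sums were 693 to 898 FPKM in PRB P4, against 639 to 715 FPKM in PRB oil, and 642 to 852 FPKM in PRA P4, against 625 to 728 FPKM in PRA oil, and overlapped in both strains. Without Dcn and Lum, which both fell, the stromal sums were 350 to 456 FPKM in PRB P4, against 396 to 442 FPKM in PRB oil, and 369 to 478 FPKM in PRA P4, against 362 to 399 FPKM in PRA oil, and also overlapped. Leaving out these 3 genes was chosen after their values were seen. The 4 mesothelial markers summed to 44.0 to 70.5 FPKM in PRB P4, against 52.5 to 117 FPKM in PRB oil, and to 22.6 to 64.3 FPKM in PRA P4, against 79.1 to 86.3 FPKM in PRA oil. Of these, Upk1b and Upk3b fell in PRA, and Upk1b was higher in PRB P4 than in PRA P4 (adjusted p = 0.0488 by limma), which did not pass without PRB P4 replicate 3 (adjusted p = 0.0943). Smooth muscle markers summed to 1035 to 1734 FPKM in PRB P4, against 1101 to 1429 FPKM in PRB oil, and to 1224 to 1677 FPKM in PRA P4, against 1181 to 1518 FPKM in PRA oil. Of the 6 endothelial markers, Pecam1 and Tek were, like Fgfr1, higher in PRB P4 than in PRA P4, and 4 did not pass. Within PRB P4, replicate 3 had the highest Pecam1 and Tek, at 52.6 and 16.9 FPKM, and the lowest Fgfr1, at 26.9 FPKM. The 6 endothelial markers summed to 137 to 171 FPKM in PRB P4, the highest in replicate 3, against 107 to 138 FPKM in PRA P4. The 4 gland markers summed to 246 to 302 FPKM in PRB P4, against 156 to 188 FPKM in PRB oil, and to 193 to 257 FPKM in PRA P4, against 144 to 179 FPKM in PRA oil. Most of each sum was Sox17. It averaged 238.2 FPKM in PRB P4 and 167.2 FPKM in PRB oil, and 210.9 FPKM in PRA P4 and 149.8 FPKM in PRA oil. Sox17 rose in both strains and Spink3 in PRB, where the highest Spink3 was in PRB P4 replicate 3. Foxa2 overlapped between P4 and oil in both strains and did not pass, so the gland sums do not show a rise of gland markers as a set. The part of these shifts in the FGF results was not tested.

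The genes whose log2 values followed each FGF gene most closely over the 16 libraries were found by the root mean square (RMS) difference after centring, among 13188 features. For Fgf10 they were Il15ra (0.18), Slc29a1 (0.18) and Plk3 (0.20), against an RMS spread of Fgf10 itself of 0.81. For Fgf7 they were Zfp36 (0.25), Tgfbr3 (0.25) and Cited2 (0.26), against a spread of 0.75, so Fgf7 had no neighbour as close as those of Fgf10. For Fgf9 they were Serpinb6b (0.15), Fam229b (0.17) and the oxytocin receptor Oxtr (0.18), against 0.64, and for Fgf18 they were Me3 (0.16), Ifitm1 (0.16) and Fam131c (0.18), against 0.74. Fgfr1 was followed most closely by Plagl1, Hvcn1 and Sema5a (0.12 to 0.14, against 0.32), Fgfr2 by Crybg3, Ppm1l and Cap2 (0.08 to 0.10, against 0.33) and Fgfr3 by Gpsm2, Dennd4a and Fam129b (0.10 to 0.12, against 0.41). For Spry2 they were Arl13b, Kif17 and Lmbrd1 (0.08, against 0.29). Fgf1 and Fgf2 had neighbours at 0.30 to 0.31 and 0.14 to 0.15, against spreads of 0.51 and 0.25. The libraries share groups and depth, so closeness is a description of these 16 libraries.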

How the data were processed

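The authors deposited 1 table of FPKM values per feature and library; per the submitters' processing notes, TopHat2 2.0.4, Cufflinks 2.0.2, Cuffdiff and mm10 were used, with no role or order given. How strand, annotation and scaling were handled is not stated in these sources. No counts were used. Values were transformed to log2(FPKM + 1), which understates changes of low genes, and those features whose average reached 1 FPKM were tested with limma 3.58.1 in R 4.3.3, in 1 model of all 16 libraries with a mean per group and an intensity trend. P-values are two-sided and adjusted by Benjamini-Hochberg over 15408 features, and a change passed at an adjusted p under 0.05. Within each strain P4 was set against oil, PRB was set against PRA under either treatment, and the difference of the 2 responses was the fifth contrast. The procedure was tested on simulated data.

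The 10 genes, the pathway lists, the marker lists and the motifs were chosen with earlier results of these data known. Outside the 10, Hand2 and Pgr, the genes named were up to 4 changed members per list and contrast by size of change, or the 2 most expressed where none changed, and the 3 nearest genes of each of the 10. Some genes that meet this rule are not reported here. Alternatives were a pseudocount of 0.1, no filter, a filter at 5 FPKM, quantile normalization, median-ratio scaling, the libraries of the contrast alone, a replicate block, no intensity trend and the omission of each library. Promoter windows are from RefSeq and overlaps from GENCODE, both on GRCm38. No pair of libraries held identical values.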

Additional observations from a re-analysis of the deposited data

Results flagged for a closer look

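In 4 of the 40 combinations of the 10 genes and 4 groups, 1 library stood far from the other 3 of its group, with a gap to its nearest neighbour above Dixon's 95% critical value. Chance gives about 1 in 20. Fgf10 was at 23.1 FPKM in PRA P4 replicate 3, against 18.0 to 18.5 FPKM in the others of that group. Fgf18 was at 4.65 FPKM in PRA P4 replicate 1, against 3.22 to 3.33 FPKM. Fgfr2 was at 79.4 FPKM in PRB oil replicate 4, against 96.9 to 98.8 FPKM. Fgfr3 was at 3.47 FPKM in PRA oil replicate 2, against 2.63 to 2.76 FPKM. The P4 changes of these 4 genes passed in both strains when any 1 library was left out.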

How the results depend on the processing

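No called value of the 10 genes changed sign under the 24 alternatives, and the P4 changes of Fgf7, Fgf9, Fgf10, Fgf18, Fgfr2, Fgfr3 and Spry2 passed in both strains under all of those in which the gene was tested. Fgf2, Fgf9 and Fgfr3 were below the filter of 5 FPKM. Fgf1 passed in PRA when the fit held just the PRA libraries and in PRB under the filter of 5 FPKM. The number of the 10 that differed between the strains with P4 was 3 under quantile normalization, against 5. Leaving out 1 library gave 3 to 5 for that count, 8 to 9 for P4 in PRA, 7 to 9 for P4 in PRB, 0 to 0 for the strains with oil and 0 to 1 for the difference of responses. Over all features, leaving out 1 library gave 10186 to 11111 for P4 in PRA, 10180 to 10663 for P4 in PRB, 8 to 29 for the strains with oil, 1412 to 2612 for the strains with P4 and 155 to 494 for the difference of responses. For the strains with oil 33 passed with no filter and 6 when the fit held just the libraries compared, which gives no difference of responses, against 18. Of the 18, 33.3% were higher in PRB, against 43.5% of the calls under quantile normalization. For the strains with P4, 1640 passed when the fit held just the libraries compared, against 2471. The cause was not tested. Replicate numbers were not shown to pair libraries: deviations of same-numbered libraries correlated at -0.07 to 0.13 in PRA, -0.09 to 0.04 in PRB, -0.23 to 0.31 with oil and -0.04 to 0.07 with P4, and 1 of 4 libraries matched its own number best in each. With the replicate block 1 of the 10, Fgfr1, passed for the difference of responses, at 0.66 (adjusted p = 0.0496 by limma), against 0, and Fgf7 missed the threshold for the strains with P4 (adjusted p = 0.0515), which left 4 of the 10, against 5. Over all features 467 passed for the difference of responses, against 352. Of 62 other genes, among them Hand2 and Pgr, leaving out PRB P4 replicate 3 changed the call of 3 for P4 in PRB and of 4 for the strains with P4, a setting tried on these genes after seeing the data. Hand2 and Pgr were put through these alternatives after seeing the data: Hand2 kept its calls, and Pgr in PRB missed the threshold under quantile normalization, at 0.11. Without PRB P4 replicate 3 Pgr passed with oil (adjusted p = 0.0214) and for the difference of responses, at 0.37 (adjusted p = 0.0336), and in PRA (adjusted p = 0.00895). Values without the filter on low genes rest on few fragments.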

Other observations

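The secreted ligands Fgf20 and Fgf21, both under the filter of 1 FPKM, differed between groups and were singled out after their values were seen. Fgf20, a ligand of the Fgf9 subfamily, was at 0.00, 0.0118, 0.00 and 0.00 FPKM in PRB P4, against 0.0220, 0.0333, 0.0749 and 0.0108 FPKM in PRB oil, and at 0.0115, 0.00, 0.0344 and 0.0235 FPKM in PRA P4, against 0.900, 0.618, 0.234 and 0.706 FPKM in PRA oil. Every PRA oil library was thus above all 12 others. In the analysis without a filter, over 23557 features, the log2 difference of PRB oil from PRA oil was -0.62 (SE 0.09, adjusted p = 0.0164 by limma), and the P4 change in PRA was -0.65 (adjusted p = 2.53e-05 by limma). With Fgf9 and Fgf16 it completes the Fgf9 subfamily, which summed to 1.61 ± 0.390 FPKM in PRB P4 and 6.53 ± 1.61 FPKM in PRB oil, and to 1.94 ± 0.409 FPKM in PRA P4 and 7.96 ± 1.18 FPKM in PRA oil (SD, n = 4). Fgf21, an endocrine ligand that needs the co-receptor Klb, was at 1.21, 0.725, 0.0609 and 0.794 FPKM in PRB P4, against 0.0188, 0.0951, 0.00 and 0.00 FPKM in PRB oil, and at 0.493, 0.762, 0.511 and 0.645 FPKM in PRA P4, against 0.00, 0.0378, 0.0573 and 0.00 FPKM in PRA oil. In the same analysis its log2 change was 0.67 in PRB (adjusted p = 0.00203 by limma) and 0.64 in PRA (adjusted p = 0.00278 by limma), and PRB P4 replicate 3 lay within the range of the oil libraries.

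The oil libraries of PRA split alike for several of the 10 genes, a pattern noticed after their values were seen. Replicates 1 and 3 had the 2 highest values of the group for Fgf1, Fgf2, Fgf7, Fgf10, Fgfr1 and Spry2, and replicates 2 and 4 the 2 lowest. For Fgf9, Fgf18 and Fgfr3 the order was the reverse, replicates 2 and 4 being the 2 highest. Replicates 1 and 3 lay at 14.5 and 12.1 on the second principal component, and replicates 2 and 4 at -11.6 and -18.1. Smooth muscle markers summed to 1181 and 1193 FPKM in replicates 1 and 3, and to 1518 and 1336 FPKM in replicates 2 and 4. Endothelial markers went the other way, at 159 and 147 FPKM, against 133 and 124 FPKM, as did leukocyte markers, at 36.8 and 33.0 FPKM, against 23.5 and 31.0 FPKM. The gland marker Foxa2 was at 2.95 and 2.94 FPKM, against 7.76 and 10.1 FPKM. The epithelial, stromal, mesothelial and gland sums did not split in this way. The part of these in the spread of the FGF genes was not tested.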
